A study of Mus musculus with 6 samples.

Results

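The genes described here are the transcripts of the liver X receptors (LXR), of their retinoid X receptor (RXR) partners and of coregulators that these receptors recruit. They are 9 of 55487 gene rows in RNA sequencing tables of mouse mammary tumours, selected by gene name. The members are Nr1h2 (LXRβ), Nr1h3 (LXRα), Rxra, Rxrb, the corepressor Ncor1, the coactivators Ncoa1, Ncoa2 and Ncoa3, and Nrip1 (RIP140). Each name matched 1 row, and all 9 passed the filter on low counts, as did 17396 genes in all. The tumours arose in MMTV-PyMT mice, in which the mouse mammary tumour virus promoter drives the polyoma middle T oncogene in mammary epithelium. All 6 libraries come from this transgenic model. The agonist group holds 3 tumour libraries of mice that took DMHCA, a synthetic steroidal LXR agonist, in Medigel cups without a break. The vehicle group holds 3 tumour libraries of mice labelled Vehicle or Ctl. For both groups the labels give a start of dosing at 6 weeks of age. Strain, sex and the age at collection are not stated in the labels. Within a group all titles carry the same code, which differs between the groups, whereas the name of each table holds a code of its own, and no label assigns the tumours to different animals. A single source per group and the treatment cannot be told apart, and p-values here reflect only variation among these libraries, part of which may be technical.

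LXRs are nuclear receptors that bind oxysterols and other sterols and act on DNA as pairs with an RXR. Without a ligand the pair holds corepressor complexes such as that of NCoR, and with an agonist it exchanges them for p160 coactivators, which bring in histone acetyltransferases. LXRα is best known in liver, fat and macrophages and LXRβ is made in most tissues. Their target genes include the cholesterol exporters Abca1 and Abcg1 and the lipogenic factor Srebf1.

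Promoter windows of 7 of the 9 genes were found in the RefSeq table for GRCm38.p6, 12 windows in all, each reaching from 250 bases before an annotated start to 50 after it. Windows of both LXR genes are printed because these receptors bind the agonist. A window of Rxrb is shown because it was the only receptor gene whose groups did not overlap in CPM, and the downstream window of Rxra because it was the only window of the 12 with the receptor half-site. Capitals mark AGGTCA, the half-site that RXR pairs bind, and GGGCGG, the GC box bound by Sp1, on either strand.
Nr1h2, chr7:44553916-44554215, minus strand: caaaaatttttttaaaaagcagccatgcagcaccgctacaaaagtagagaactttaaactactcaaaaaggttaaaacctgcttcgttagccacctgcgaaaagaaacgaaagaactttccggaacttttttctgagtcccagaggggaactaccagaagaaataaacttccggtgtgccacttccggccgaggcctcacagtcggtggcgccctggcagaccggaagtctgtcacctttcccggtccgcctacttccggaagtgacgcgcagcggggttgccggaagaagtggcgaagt
Nr1h3, chr2:91195067-91195366, minus strand: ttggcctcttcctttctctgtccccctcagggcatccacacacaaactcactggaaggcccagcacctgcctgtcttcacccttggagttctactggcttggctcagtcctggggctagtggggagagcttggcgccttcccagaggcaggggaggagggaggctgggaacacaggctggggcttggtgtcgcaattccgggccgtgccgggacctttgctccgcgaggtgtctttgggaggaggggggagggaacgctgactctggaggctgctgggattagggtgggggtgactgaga
Rxrb, chr17:34031562-34031861, plus strand: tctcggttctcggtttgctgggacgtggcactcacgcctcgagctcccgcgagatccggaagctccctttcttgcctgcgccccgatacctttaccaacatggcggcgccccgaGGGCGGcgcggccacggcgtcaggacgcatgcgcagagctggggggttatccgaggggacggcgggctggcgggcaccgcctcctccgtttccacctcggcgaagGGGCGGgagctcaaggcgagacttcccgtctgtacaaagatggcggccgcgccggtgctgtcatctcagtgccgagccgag
Rxra, chr2:27709042-27709341, plus strand: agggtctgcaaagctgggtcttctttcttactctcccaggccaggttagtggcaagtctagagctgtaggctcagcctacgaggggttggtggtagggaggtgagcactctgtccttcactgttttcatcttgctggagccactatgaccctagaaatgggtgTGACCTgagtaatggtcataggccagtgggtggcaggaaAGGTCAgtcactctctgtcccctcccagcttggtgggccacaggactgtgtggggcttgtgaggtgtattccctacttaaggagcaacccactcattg
The half-site was found in 1 of the 12 windows, with 2 matches, and in 16.3% of the 32851 windows of all genes. The GC box was found in 6 of the 12 and in 35.7% of all windows. The direct repeat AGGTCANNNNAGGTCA, a repeated half-site with a spacer that LXR pairs prefer, was in 0 of the 12 and in 0.0152% of all. The printed Nr1h2 window held 19 CpG dinucleotides and 50.7% G and C, and the printed Nr1h3 window held 8 and 63.0%. The median over all windows was 7 CpG and 52.7%. The printed Rxrb window held 37 CpG and the printed downstream window of Rxra 1. The other windows of Rxra, Rxrb and Nr1h3, not printed, held 55, 47 and 10 CpG. These matches describe letters in the windows and not binding.

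The libraries held between 36577451 and 42595799 expected counts, and the lowest count of any member in any library was 285, for Nr1h3. Markers of luminal epithelium were all detected, with a summed level of 3574 to 3951 CPM (counts scaled to library size) in every library except vehicle replicate 2, which had 4961 CPM. The remaining marker lists were also detected in full, with 0 markers at 0 in all libraries. Vehicle replicates 2 and 3 stood at opposite ends for stroma. Summed fibroblast markers were at 5627 CPM in vehicle replicate 2 and 454 in replicate 3, against 2460 to 3937 CPM with agonist. Macrophage markers were at 666 and 148 CPM in the same vehicle libraries against 394 to 421 with agonist, and adipocyte markers at 447 and 19.9 against 44.3 to 320. Endothelial markers spanned 19.7 to 46.4 CPM, basal markers 55.9 to 493, T cell markers 1.93 to 3.87 and skeletal muscle markers 300 to 591 over the 6 libraries. All 5 basal (median 1.19), 7 fibroblast (0.26), 4 endothelial (0.30) and 3 muscle (0.32) markers had positive log2 fold changes with agonist. Of 7 macrophage markers 6 were positive (median 0.13). Negative values were held by 5 of 6 luminal (median -0.13), 3 of 4 T cell (-0.12) and 3 of 4 adipocyte (-0.45) markers. In each of these lists 0 were called by edgeR. The basal score was 1.70 in agonist replicate 3 and -1.62 in vehicle replicate 3, and between -0.20 and 0.10 in the rest. The part of these cell types in the values below was not tested.

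Per transcript length, Nr1h2 was the most abundant of the 9 transcripts and Ncoa2 the least. In TPM (transcript abundance, counts divided by transcript length and scaled to 1 total per library) the means over 6 libraries were 106 ± 30.0 for Nr1h2 (SD, n = 6), 53.1 ± 7.69 for Ncor1, 29.7 ± 7.20 for Rxrb and 15.1 ± 3.57 for Rxra. They were 10.8 ± 2.27 TPM for Ncoa3, 8.37 ± 1.87 for Ncoa1, 6.50 ± 1.03 for Nr1h3, 5.96 ± 1.52 for Nrip1 and 5.60 ± 0.872 for Ncoa2. Nr1h2 lay above 93.4% of the tested genes in mean TPM and Nr1h3 above 45.2%. In every library Nr1h2 exceeded Ncor1, Ncor1 exceeded Rxrb, Rxrb exceeded Rxra, Rxra exceeded Ncoa3 and Ncoa3 exceeded Ncoa1. Ncoa1 exceeded Nr1h3 in 5 of 6 libraries, Nr1h3 exceeded Nrip1 in 4 and Nrip1 exceeded Ncoa2 in 3, so these last neighbours did not differ beyond their spread.

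**Figure D1:**
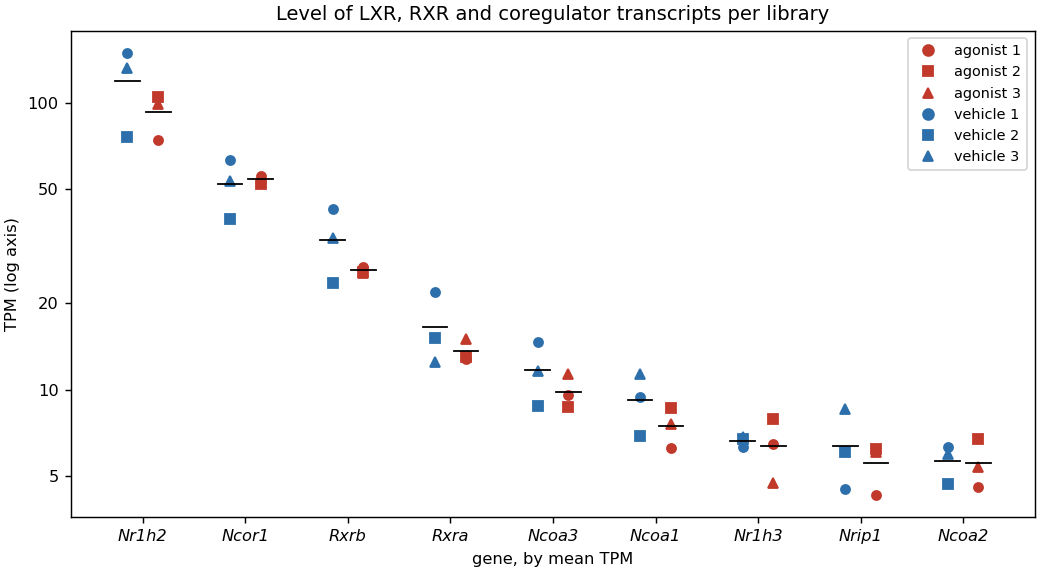
TPM on a log axis for each gene in each library, with vehicle in blue, agonist in red, the symbol giving the replicate and the black line the group mean. Nr1h2 at 74.2 to 149 TPM lies above the other genes, and the groups overlap for all 9 genes on this scale.

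The LXR receptors differed in level and in how they varied. Nr1h2 encodes LXRβ on chromosome 7 (44549616 to 44553951, minus strand). It stood at 156, 115 and 162 CPM in vehicle replicates 1, 2 and 3 and at 106, 123 and 131 CPM in agonist replicates 1, 2 and 3. Vehicle replicates 1 and 3 were above all agonist libraries, while vehicle replicate 2 lay within the agonist range. The log2 fold change was -0.26 (95% interval -0.68 to 0.15), with an unadjusted p of 0.182 by edgeR. With 1 library left out it ran from -0.41 (without vehicle replicate 2) to -0.17 (without vehicle replicate 3).

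Nr1h3, which encodes LXRα on chromosome 2 (91184061 to 91202834, minus strand), had 7.59, 11.1 and 8.75 CPM with vehicle (replicates 1 to 3) and 8.56, 10.2 and 6.80 CPM with agonist. The highest and the lowest value came from different groups and the groups overlapped throughout. The log2 fold change of Nr1h3 was -0.11 (95% interval -0.74 to 0.53). It was positive without agonist replicate 3 (0.031) or without vehicle replicate 2 (0.056), so no direction can be given. Vehicle replicate 2, which had the most Nr1h3 in CPM, also had the most macrophage and adipocyte marker RNA, with mean log2 deviations of 0.91 and 2.07 from the 6-library mean. In TPM, Nr1h3 was higher in agonist replicate 2 (7.89) and vehicle replicate 3 (6.86) than in vehicle replicate 2 (6.74). Vehicle replicate 3, which had the least of both (-1.31 and -2.04), had Nr1h3 at its mean (0.0066). In bulk tissue, fewer cells of a type and less RNA per cell cannot be told apart.

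The RXR partners were between the LXR genes in level. Rxra, on chromosome 2 (27676440 to 27762957, plus strand), reached 87.4, 77.8 and 53.6 CPM with vehicle (replicates 1 to 3) and 56.8, 53.7 and 66.2 CPM with agonist. Vehicle replicates 1 and 2 were above every agonist library and vehicle replicate 3 was level with the lowest. Its log2 fold change was -0.31 (95% interval -0.78 to 0.16), and -0.49 without vehicle replicate 3 against -0.16 without vehicle replicate 1.

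Rxrb, on chromosome 17 (34031812 to 34038399, plus strand), was found at 66.1, 50.3 and 57.5 CPM with vehicle (replicates 1 to 3) and 50.02, 43.4 and 45.8 CPM with agonist. All agonist libraries were below all vehicle libraries, agonist replicate 1 being just under vehicle replicate 2. Between the groups the log2 fold change was -0.32 (95% interval -0.67 to 0.024), and the unadjusted p of 0.064 by edgeR was the smallest among the members. The remaining isotype, Rxrg, which is known from muscle and brain, was near the limit of measurement with 0.327 ± 0.273 TPM with agonist and 0.627 ± 0.306 with vehicle (SD, n = 3).

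The p160 coactivators are given in turn, and no test compared them with each other. Ncoa1 (SRC-1), on chromosome 12 (4247362 to 4477182, minus strand), gave 41.4, 39.03 and 52.1 CPM with vehicle (replicates 1 to 3) and 33.03, 38.0 and 36.3 CPM with agonist. The groups did not overlap, although vehicle replicate 2 and agonist replicate 2 lay next to each other. Agonist over vehicle gave a log2 fold change of -0.30 (95% interval -0.67 to 0.059), with -0.17 without vehicle replicate 3 and -0.39 without vehicle replicate 2.

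Ncoa3 (SRC-3, also known as amplified in breast cancer 1) lies on chromosome 2 (165992636 to 166073242, plus strand) and had 81.5, 67.4 and 68.8 CPM in the vehicle libraries. It had 60.7, 52.9 and 67.1 CPM in the agonist libraries. The groups again did not overlap, with agonist replicate 3 and vehicle replicate 2 next to each other. On the log2 scale the agonist difference was -0.27 (95% interval -0.62 to 0.085), and -0.18 without vehicle replicate 1. Its counts were not whole in 5 of the 6 libraries, so some of its reads were shared with other genes, and 154 exon bases (1.95%) lie opposite Sulf2.

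Ncoa2 (SRC-2), on chromosome 1 (13139105 to 13374083, minus strand), was measured at 37.1, 39.0 and 39.1 CPM under vehicle and 32.5, 42.64 and 38.8 CPM under agonist. The vehicle libraries lay inside the agonist range. Its log2 fold change was -0.017 and its 95% interval ran from -0.36 to 0.32.

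Among the corepressors, Ncor1 had the smallest range of CPM of the 9 genes and Nrip1 the widest, while in TPM these places went to Ncoa2 (1.47-fold) and Nr1h2 (2.01-fold). Ncor1 (NCoR), on chromosome 11 (62316426 to 62458541, minus strand), was counted at 165, 164 and 171 CPM with vehicle (replicates 1 to 3) and 141, 171 and 184 CPM with agonist. The highest library exceeded the lowest 1.302-fold, 10.1% of the tested genes had a smaller range, and the median gene had 1.82-fold. The log2 fold change of Ncor1 was -0.011 (95% interval -0.36 to 0.34).

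Nrip1, a corepressor that binds agonist-loaded receptors and is itself induced by oestrogen and retinoids, lies on chromosome 16 (76287400 to 76373827, minus strand). It had 20.8, 47.1 and 47.9 CPM with vehicle (replicates 1 to 3) and 27.6, 35.4 and 36.9 CPM with agonist. The agonist libraries thus lay between vehicle replicate 1, the lowest, and vehicle replicates 2 and 3, the highest, with a 2.30-fold range. Agonist over vehicle gave a log2 fold change of -0.21 (95% interval -0.95 to 0.52). Without vehicle replicate 1 it was -0.51. Leaving out vehicle replicate 3 gave -0.018, vehicle replicate 2 gave -0.044 and agonist replicate 1 gave -0.089.

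Across the 9 genes all log2 fold changes were negative with the main TMM scaling, 7 of 9 with upper-quartile scaling and 8 of 9 with the GC correction described below, and none passed the test. The median was -0.26, where the median of all 17396 tested genes was -0.0049 and 50.7% were negative. Upper-quartile scaling moved the median of all genes to 0.031 and that of the 9 to -0.23. By the edgeR quasi-likelihood test with Benjamini-Hochberg adjustment, 0 of the 9 were called at an adjusted p under 0.05, and the adjusted p ran from 0.99 to 0.996. Over all genes 0% were called, and the unadjusted p was under 0.05 for 0 of the 9 genes and for 3.09% of all. DESeq2 called 4 genes, none a member, and limma-voom and limma-trend on TPM called 0. The 95% intervals still allow a decrease to between -0.36 and -0.95 on the log2 scale, so this depth and number of libraries do not show that the genes kept their level.

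**Figure D2:**
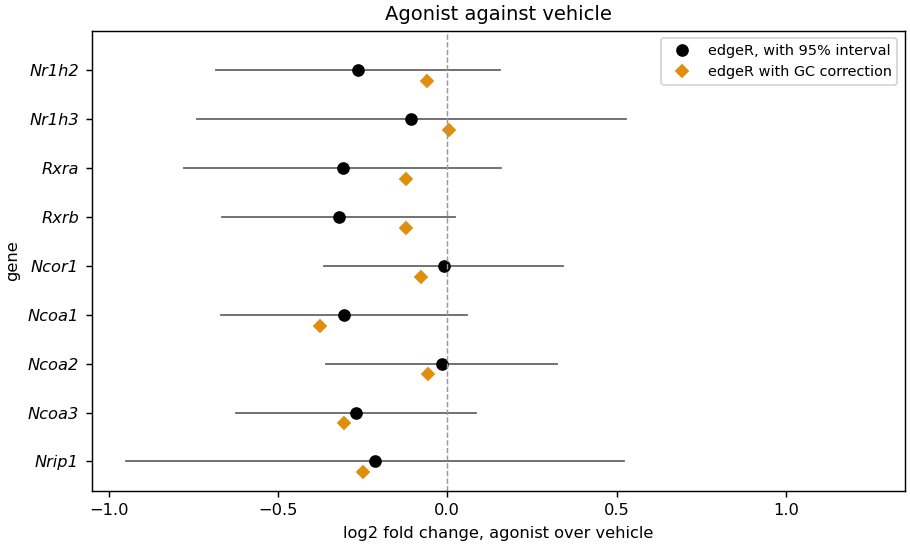
Log2 fold change of agonist over vehicle for the 9 genes, with the edgeR estimate and its 95% interval in black and the estimate after a correction for GC content in orange. All 9 intervals cross 0, and the orange estimates of the 4 receptors lie between -0.12 and 0.0062.

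In CPM the groups did not overlap for 3 of the 9 genes, Rxrb, Ncoa1 and Ncoa3, each lower with agonist. Among all tested genes 7.24% did not overlap in either direction and 4.22% were lower without overlap. This count rested on the scale. In TPM the groups overlapped for all 9 genes, where 1.45% of all genes were lower without overlap.

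GC content moved with these values. The transcripts of the 4 receptors had a mean GC content of 57.0% (Nr1h3) to 60.8% (Nr1h2), in the highest of 5 equal bins of the tested genes by GC content (55.9% to 75.5%). Those of the 5 coregulators had 47.3% (Ncoa1) to 50.6% (Ncoa3). In vehicle replicate 1 the median log2 deviation of all genes from the 6-library mean went from -0.23 in the lowest bin to 0.25 in the highest. In agonist replicate 3 it went from 0.13 to -0.12, and in vehicle replicate 3 it stayed between 0.0026 and 0.029. The medians of the highest bin were -0.095, -0.049 and -0.12 in agonist replicates 1, 2 and 3. They were 0.25, 0.0066 and 0.029 in vehicle replicates 1, 2 and 3, so the groups did not overlap in this bin. In the lowest bin they overlapped, at 0.095, 0.0045 and 0.13 with agonist and -0.23, 0.044 and 0.0076 with vehicle. Rxra, Rxrb and Nr1h2 were at 0.43, 0.35 and 0.25 in vehicle replicate 1, while Nr1h3, with a similar GC content, was at -0.20.

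**Figure D3:**
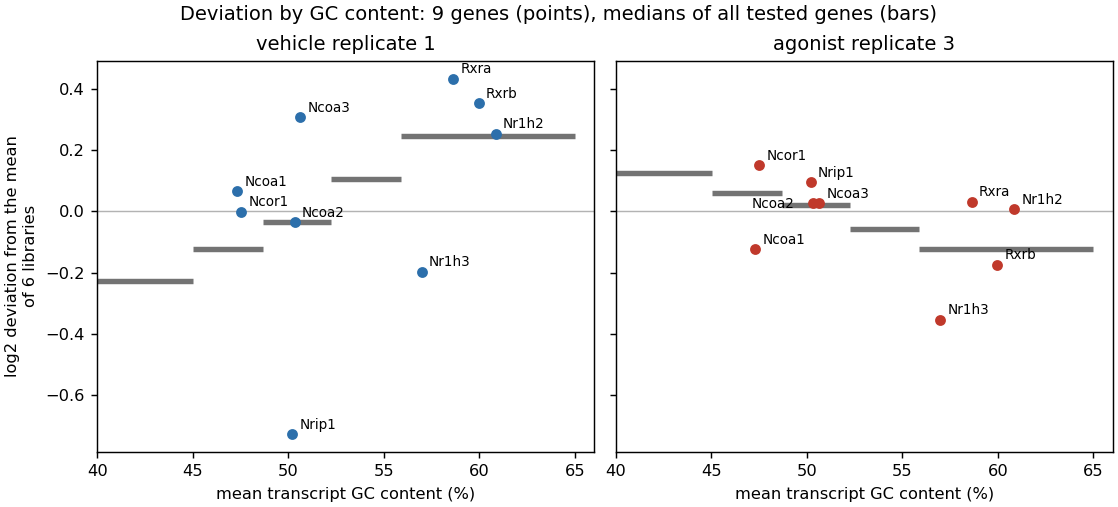
Log2 deviation from the 6-library mean against mean transcript GC content in vehicle replicate 1 (left) and agonist replicate 3 (right), the libraries with the steepest trends. Points are the 9 genes and grey bars the medians of all tested genes in 5 bins by GC content, with the outer bars ending at the plot's range. The bars go from -0.23 to 0.25 on the left and from 0.13 to -0.12 on the right.

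With a GC correction in the edgeR fit, added after the data were seen, the log2 fold changes of the receptors were -0.059 for Nr1h2, 0.0062 for Nr1h3, -0.12 for Rxra and -0.12 for Rxrb. Those of the coregulators were -0.37 for Ncoa1, -0.31 for Ncoa3, -0.25 for Nrip1, -0.078 for Ncor1 and -0.056 for Ncoa2. The receptor values thus moved toward 0, and those of the coregulators moved away from 0. After this correction the groups overlapped for all 9 genes, where 3.12% of all genes were lower without overlap. The parts of GC content, treatment, cell types and variation among libraries in the uncorrected receptor values cannot be told apart here.

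**Figure D4:**
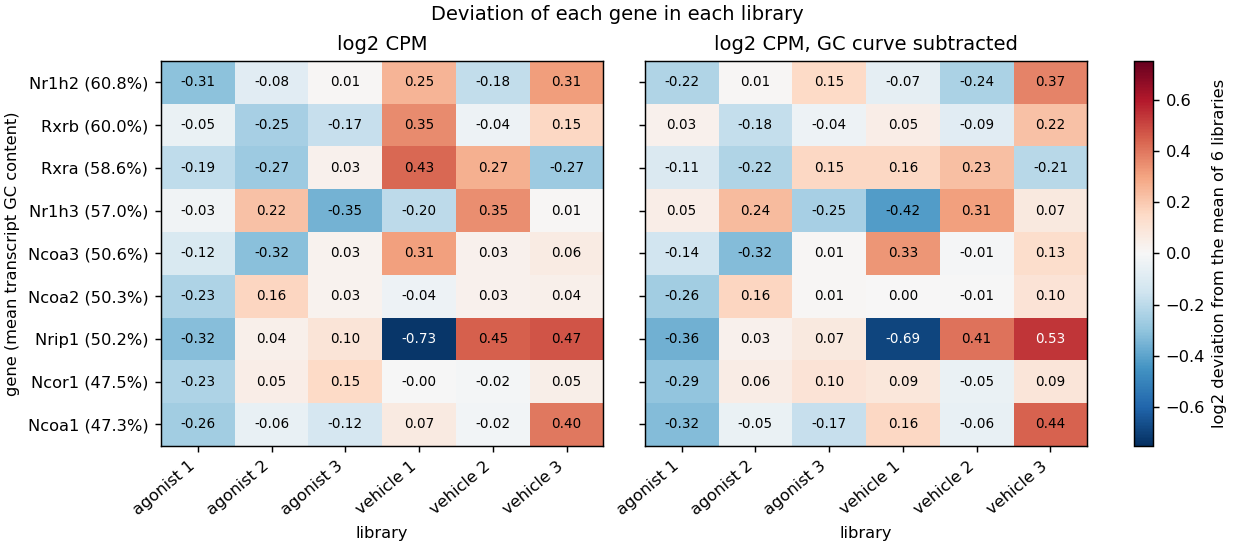
Log2 deviation of each gene (rows, by GC content) from its mean over 6 libraries, before (left) and after (right) the fitted GC curve was subtracted. Vehicle replicate 1 goes from 0.25 to -0.07 for Nr1h2 and stays low for Nrip1, at -0.73 and -0.69.

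The balance between paired receptors was described per length. The ratio of Nr1h2 to Nr1h3 in TPM was 23.6, 11.3 and 19.3 in vehicle replicates 1, 2 and 3 and 11.5, 13.3 and 20.9 in agonist replicates 1, 2 and 3. LXRβ transcripts thus exceeded LXRα transcripts in every library, and the groups overlapped. The difference in log2 ratio was -0.23 (exact permutation test, two-sided, p = 0.8). With 1 library left out it ran from -0.54 (without vehicle replicate 2) to -0.0013 (without vehicle replicate 1). Rxra stood at 0.517, 0.645 and 0.371 of Rxrb with vehicle against 0.478, 0.504 and 0.590 with agonist, a log2 difference of 0.067 (exact permutation test, two-sided, p = 0.9). This difference was 0.25 without vehicle replicate 2 and -0.15 without vehicle replicate 3. Rxra was below Rxrb in TPM in all 6 libraries, although its CPM were higher in 5 of them, and its mean transcript length was 4851 to 4905 bases against 2089 to 2216 for Rxrb.

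The summed TPM of the p160 coactivators relative to Ncor1 was 0.482, 0.516 and 0.542 with vehicle against 0.368, 0.460 and 0.443 with agonist. All agonist libraries were below all vehicle libraries. The log2 difference was -0.28, with p = 0.1 in a two-sided exact permutation test, the smallest p that 3 libraries against 3 allow, and 0.3 after Benjamini-Hochberg adjustment over the 3 ratios. Without agonist replicate 1 the difference was -0.18. On expected counts in place of TPM the groups overlapped and the difference was -0.19 (exact permutation p = 0.2).

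**Figure D5:**
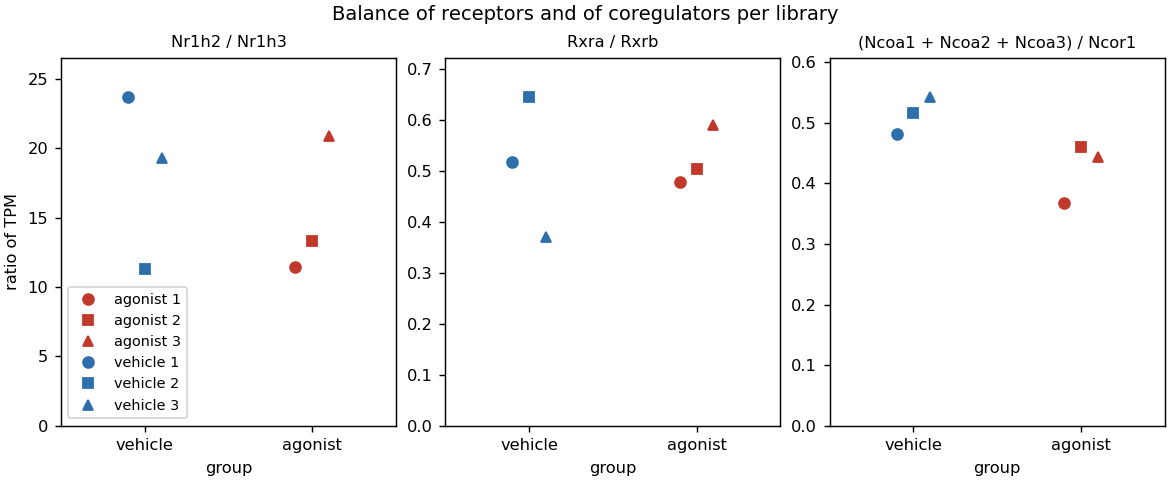
Ratio of TPM in each library for Nr1h2 over Nr1h3 (left), Rxra over Rxrb (middle) and the summed p160 coactivators over Ncor1 (right), with axes from 0. The left and middle groups overlap, and on the right the agonist libraries (0.368 to 0.460) lie below the vehicle libraries (0.482 to 0.542).

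The tables also give for each gene a transcript length averaged over its isoforms by their estimated share, a readout of isoform use. Ncor1, with 25 listed isoforms, had the widest relative range, from 2932 bases in agonist replicate 1 to 4019 in vehicle replicate 2. A longer mean length lowers TPM for the same count, so the Ncor1 TPM and the ratio to it depend on the isoform estimate. Nrip1 ran from 5570 bases in vehicle replicate 1, where its CPM was lowest, to 7241 in vehicle replicate 2. The mean length of Nr1h2 was 1507, 1656 and 1610 bases with vehicle and 1758, 1612 and 1692 with agonist, overlapping groups.

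Rxra was the only member whose mean lengths did not overlap between groups, at 4905 bases in all 3 agonist libraries and 4851, 4900 and 4898 in vehicle replicates 1, 2 and 3. Vehicle replicate 1 also had the shortest mean length for Nr1h2, Rxrb, Ncoa2 and Nrip1. The Rxra difference was 21.97 bases, and 6.2 without vehicle replicate 1. The exact permutation test, two-sided, gave p = 0.1 with all libraries, the smallest possible, and 0.9 adjusted over the 9 members. With effective length in place of length the Rxra difference was 33.7 bases (exact permutation test, p = 0.5). How many of all genes had lengths without overlap was not counted. For the other members the exact permutation p was 0.2 to 1. Isoforms cannot be named from these tables, which list 8 transcripts for Rxra where GENCODE M21 has 6.

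Other genes of the pathway were read from lists by role. Among 18 LXR target genes 16 were tested, 13 with positive and 3 with negative log2 fold changes and a median of 0.27. None was called, 4 had an unadjusted p under 0.05 by edgeR (3.09% of all genes did), and the 3 smallest belonged to Abcg1 (0.86 ± 0.23, SE), Scd2 (0.61 ± 0.22) and Abca1 (0.85 ± 0.31). The fourth, Mlxipl, was negative (-0.75 ± 0.29) and is named after its values were seen. It had 18.7, 9.56 and 17.9 CPM under vehicle and 9.13, 9.20 and 9.14 CPM under agonist. The Mlxipl groups did not overlap in CPM, but they overlapped in TPM and with the GC curve subtracted. In CPM 2 of the 16 targets, Abca1 and Abcg1, were higher with agonist without overlap, and 1, Mlxipl, was lower. Among all tested genes 7.24% did not overlap in either direction. Abca1 and Abcg1 also did not overlap in TPM. With the GC curve subtracted Abcg1 still did not overlap, while Abca1 did. Srebf1 was at -0.16 ± 0.24. The targets and the 9 genes therefore had medians of opposite sign, a description that was not tested.

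Of 15 other receptors that pair with RXR, Rxrg included, 14 were tested, with 5 positive and 9 negative values, a median of -0.14 and 0 called. Ppard, the lipid sensor PPARδ, had 35.2, 29.8 and 34.1 CPM with vehicle (replicates 1 to 3) and 21.1, 24.9 and 19.0 CPM with agonist. Its groups did not overlap in CPM but did in TPM (log2 fold change -0.61 ± 0.16, SE, with edgeR adjusted p = 0.99 and unadjusted p = 0.00616). Its transcript GC content was 58.8%. With the GC curve subtracted, its log2 deviations were 0.12, 0.12 and 0.42 with vehicle and -0.26, -0.046 and -0.36 with agonist. The groups thus did not overlap after this correction, where 3.12% of all genes were lower without overlap. The retinoic acid receptors Rarb (-0.97 ± 0.65) and Rara (-0.32 ± 0.22) came next, with overlapping groups in CPM. Rarb was low, with 65.6 expected counts in vehicle replicate 1 and 12.2 to 21.3 in each of the others. Rara had a transcript GC content of 59.4%, and its groups also overlapped with the GC curve subtracted.

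Of the 6 other genes of corepressor complexes 4 had negative and 2 positive values (median -0.14), and 0 were called. Tbl1xr1 (0.23 ± 0.17, SE) and Gps2 (-0.16 ± 0.18), subunits of the NCoR complex, were among the 3 with the smallest unadjusted p by edgeR.

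Of 12 other coactivators 9 had negative and 3 positive values (median -0.079), and 0 were called. The histone methyltransferase genes Kmt2d (-0.58 ± 0.28) and Carm1 (-0.33 ± 0.18) and the acetyltransferase gene Ep300 (-0.25 ± 0.17) had the smallest unadjusted p. Their groups overlapped in CPM. Kmt2d was at 258, 124 and 163 CPM in vehicle replicates 1, 2 and 3 and at 98.5 to 134 CPM with agonist. Transcript GC content was 57.3% for Kmt2d, 56.5% for Carm1 and 46.9% for Ep300. Among 6 enzymes that make or remove sterol ligands 4 had negative and 2 positive values (median -0.098), and 0 were called. The hydroxylases Cyp46a1 (-0.75 ± 0.53), Ch25h (-0.52 ± 0.48) and Cyp27a1 (0.28 ± 0.33) led this list.

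The genes whose profile over the 6 libraries came nearest to each receptor were sought among 12274 tested genes, by the root mean square difference of centred log2 CPM. For Nr1h2 they were Gtf3c2, Fyco1 and Phc3 (0.045 to 0.048). For Nr1h3 they were Fam171a1, Tec and Haus2 (0.071 to 0.098), and for Rxra they were Irx1, Leng9 and Gigyf2 (0.051 to 0.077). Fam122a, Nelfb and Exosc4 came nearest to Rxrb (0.024 to 0.042). Those of Nrip1 were Mrpl48-ps, Muc1 and Elf5 (0.065 to 0.113). Their values in vehicle replicate 1 (-0.74, -0.68 and -0.66) were low as that of Nrip1 was (-0.73), which follows from picking them by nearness to Nrip1. Whether any of these genes is nearer than expected among 12274 candidates was not tested. Among the 9 members Ncor1 and Ncoa2 had the smallest root mean square difference (0.073), and Rxra and Nrip1 the largest (0.584). Rxrb and Ncoa3 (0.104), Nr1h2 and Ncoa1 (0.122) and Nr1h2 and Rxrb (0.175) followed the nearest pair. This difference is not scaled to how much a gene varies, so genes that vary little lie near each other. Ncor1 and Ncoa2 had the smallest ranges of CPM of the 9 genes and Nrip1 the widest. Whether the pairs rank alike by the shape of their profiles was not tested.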

How the data were processed

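Tumour RNA was sequenced in 6 libraries, 3 per group, grouped by their titles. The authors' deposited tables hold RSEM expected counts, TPM, FPKM and transcript lengths per gene, made from reads aligned to GRCm38. STAR 2.7.9a and RSEM 1.3.1 are listed in the submitters' processing notes, beside cutadapt 3.5 for reads and FastQC 0.11.9 for quality. Neither annotation release nor strand setting is stated in the labels. Without strand, reads of genes that overlap on opposite strands cannot be told apart. Gene positions are those of GENCODE M21, which holds 55141 of the 55487 identifiers.

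Expected counts were rounded and tested with edgeR 4.0.16 in R 4.3.3 (TMM, filterByExpr with minimum count 10 and total 15, robust quasi-likelihood F test of group, no covariates), with Benjamini-Hochberg adjustment over 17396 genes. CPM are scaled to the TMM-adjusted total. Deposited TPM served for levels between genes, and deposited FPKM only for an alternative to the ratios. SE is the log2 fold change over the square root of F. Ratios and lengths were tested with exact permutation tests. A marker score is the mean log2 deviation of a list's genes (prior count 2). The GC correction, added after the data were seen, takes as offset the loess fit, span 0.3, of log2 deviation against mean transcript GC content in each library. The other alternatives were 2 other scalings, 2 other filters, the replicate block, limma 3.58.1 (voom, and trend on log2(TPM + 1)), the DESeq2 1.42.0 Wald test, each library left out, and, for ratios and lengths, a pseudocount of 1 TPM, FPKM, expected counts or effective lengths.

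The members and gene lists were chosen with earlier results of these data known. Named genes are the members, the 3 of each pathway list with the smallest unadjusted p, Rxrg, Abca1, Abcg1 and Srebf1, and the 3 nearest profiles of each receptor and of Nrip1 with a mean log2 CPM of at least 1, leaving out members and symbols that start with Gm or end in Rik. 1 gene that this rule names is not reported here. The fitting code was tested on simulated data. No 2 libraries had matching counts (at most 0.65% of tested genes equal).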

Additional observations from a re-analysis of the deposited data

How the results depend on the processing

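The count of members called was 0 in every alternative run, and that of all genes was 0 except with the DESeq2 test, which called 4 (Arrb1, Igkc, Gm26964 and Pcdha8, named after their values were seen). With upper-quartile scaling Ncor1 turned to 0.022 and Ncoa2 to 0.016, with limma-trend on TPM Ncor1 turned to 0.083, and with the GC correction Nr1h3 turned to 0.0062. With 1 library left out the log2 fold change ran from -0.11 to 0.086 for Ncoa2, from -0.094 to 0.092 for Ncor1 and from -0.25 to 0.056 for Nr1h3, and the agonist minus vehicle difference in the log2 ratio of Rxra to Rxrb ran from -0.15 to 0.25. In the same way the mean transcript length differed by -37.1 to 248 bases for Ncoa1, -117 to 176 for Ncoa3, -312 to 199.8 for Ncor1, -16.3 to 63.2 for Nr1h3 and -16.3 to 819 for Nrip1. The cause of these turns was not tested. The log2 fold changes of Nr1h2, Rxra, Rxrb, Ncoa1, Ncoa3 and Nrip1 kept a negative sign in every alternative run. Replicate numbers are shared by the groups. The deviations of same-numbered libraries had correlations of 0.17, 0.038 and 0.063, and those of differently numbered libraries -0.11 to 0.055. These values cannot show whether same-numbered libraries share more than the number. With the replicate block 0 genes were called and Rxrb was at -0.31.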
